A study of Mus musculus with 28 samples.

Results

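The respiratory chain is the set of protein complexes in the inner mitochondrial membrane that passes electrons from NADH and succinate to oxygen and pumps protons as it does so. Complex I takes electrons from NADH, complex II from succinate, complex III passes them to cytochrome c and complex IV passes them to oxygen. Complex V, the ATP synthase, lets the protons flow back and makes ATP. Its subunits come from both genomes of the cell: most are encoded in the nucleus, and a few core subunits of complexes I, III, IV and V are encoded in mitochondrial DNA, which is transcribed as long precursors that are then cut. Activated T cells raise both glycolysis and respiration, and T cell subsets are known to differ in how far they rely on each.

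The genes described here are those whose symbols name a subunit of complexes I to V (Nduf subunits, Sdha to Sdhd, Uqcr, Cox4 to Cox8, Atp5, and the mt-Nd, mt-Co, mt-Cytb and mt-Atp genes) and whose mean over the libraries was at least 1 CPM on the counts-per-million scale. Of 20891 genes in the tables, 96 had such a symbol and 93 reached that level, 80 nuclear and 13 mitochondrial. The nuclear genes comprised 36 of complex I, 4 of complex II, 8 of complex III, 16 of complex IV and 16 of complex V. The mitochondrial genes comprised 7 of complex I, 1 of complex III, 3 of complex IV and 2 of complex V. The 3 genes left out, Cox7b2, Cox8b and Cox8c, are tissue-restricted forms of complex IV subunits; Cox7b2 and Cox8c were listed at 0 in all 28 libraries, and Cox8b was above 0 in 3 of them, at 0.211, 0.276 and 0.492 CPM.

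Messenger RNA was measured in 28 bulk libraries from 7 C57BL/6 mice. Naive CD4+ T cells, taken from spleen by sorting for CD62L+ cells that lacked CD44 and CD25, were activated with plate-bound antibodies to CD3 and CD28 (1 µg/ml of each). They were grown either with IL-6 (25 ng/ml) and TGF-beta1 (2 ng/ml), a condition named Th17n, or with TGF-beta1 alone (2 ng/ml), named iTreg. Cells received no inhibitor (ctrl) or 100 µM difluoromethylornithine (DFMO), an inhibitor of ornithine decarboxylase, the entry enzyme of polyamine synthesis, and live cells were sorted at 68 h. The 4 WT mice and the 3 KO mice each gave 4 libraries, 1 for each differentiation and treatment, so that the 8 groups hold 3 or 4 libraries. KO mice were JMJD3 fl/fl CD4cre, in which Cre driven by Cd4 regulatory sequences deletes floxed Kdm6b in T cells, and the study calls the WT mice controls. Cells differentiated in culture stand in here for the subsets found in tissue.

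The libraries held 2226914 to 4759290 estimated counts, so 1 CPM stood for 2.23 to 4.76 counts. Nuclear members took 1.5% to 2.26% of the counts and mitochondrial members 0.569% to 1.70%. T cell marker genes summed to 2805 to 3900 CPM, and marker lists of other cells summed to at most 31.3 CPM (CD8 T and NK cells), 21.1 CPM (B cells), 17.6 CPM (myeloid cells) and 3.78 CPM (erythroid cells). In bulk RNA, fewer cells of a type and less RNA per cell cannot be told apart.

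Per unit of transcript length, on the transcripts-per-million scale (TPM), the most abundant members in WT Th17n ctrl cells were mt-Co1, the catalytic subunit of complex IV, at 3168 ± 933 TPM (SD, n = 4), mt-Co2 at 2266 ± 929 TPM, mt-Atp6 at 1535 ± 984 TPM and mt-Nd1 at 1286 ± 414 TPM. The levels of these 4 mitochondrial genes overlapped between neighbours in that order. The most abundant nuclear members were Cox4i1 at 1093 ± 95.6 TPM, Atp5b, the catalytic subunit of ATP synthase, at 1069 ± 72.0 TPM, and Cox8a at 1015 ± 58.2 TPM, which did not differ beyond their spread. At the other end stood Atp5s at 15.0 ± 1.53 TPM, Cox4i2 at 14.5 ± 6.46 TPM, Cox6b2 at 12.8 ± 6.15 TPM and Cox6a2 at 5.77 ± 2.94 TPM.

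DFMO was compared with ctrl within each differentiation and genotype. In WT Th17n cells 47 of the 93 members rose and 16 fell, where 23.4% of all 10985 genes tested rose and 28.4% fell. The members' median log2 fold change was 0.27, and that of all genes was -0.07. In KO Th17n cells 52 rose and 13 fell (all genes, 21.1% and 24.6%), with a median of 0.39 against -0.06 for all genes. In WT iTreg cells 47 rose and 9 fell (all genes, 23.1% and 24.3%; median 0.27 against -0.05), and in KO iTreg cells 38 rose and 8 fell (all genes, 19.0% and 19.1%; median 0.25 against -0.03). In each of the 4 comparisons the share of members that rose was above that of all genes and the share that fell was below it; this is a description of the counts, not a test of the set. In iTreg cells the split depends on the scale: by limma on log2(TPM + 1), 31 members rose and 20 fell in WT and 31 rose and 12 fell in KO, where 1286 of all genes rose and 3191 fell in WT (2540 and 2674 in the count test) and 1328 rose and 2064 fell in KO (2083 and 2098). On that scale the median of all genes in WT iTreg cells was -0.20 and that of the members was 0.01. T cell marker genes, summed, stood at 3420 to 3731 CPM in WT Th17n ctrl and 2905 to 3243 CPM in WT Th17n DFMO libraries, and 5 of 7 fell there; their part in the members' values was not tested.

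**Figure D1:**
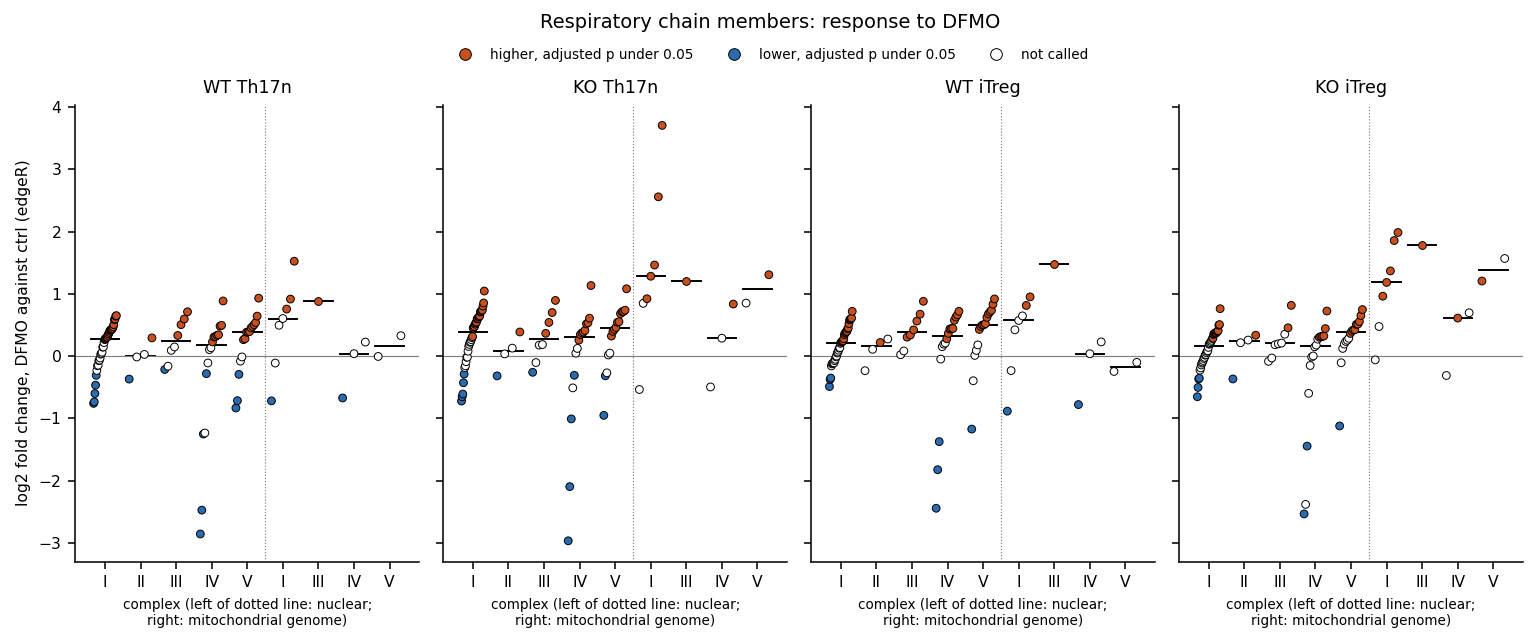
Log2 fold change of each member, DFMO against ctrl (vertical axis), in WT Th17n, KO Th17n, WT iTreg and KO iTreg cells, grouped along the horizontal axis by nuclear complex I to V and then by the mitochondrial genes of complexes I, III, IV and V, and sorted within each group. Orange points rose, blue points fell (edgeR, adjusted p under 0.05), white points were not called, and black lines mark medians; nuclear complex V has a median of 0.38 to 0.50 in the 4 panels, and the points far below 0 include Cox4i2 and Cox6b2.

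Among the nuclear complexes, the share of genes that rose was highest in complex V in 3 of the 4 comparisons and in complex III in WT iTreg cells. In WT Th17n cells 11 of the 16 complex V genes rose and 3 fell (median log2 fold change 0.38), in KO Th17n cells 11 rose and 2 fell (0.44), in WT iTreg cells 11 rose and 1 fell (0.50) and in KO iTreg cells 9 rose and 1 fell (0.38). Nuclear complex I had 19 of 36 higher and 5 lower in WT Th17n cells (median 0.27), 19 and 5 in KO Th17n cells (0.38), 17 and 3 in WT iTreg cells (0.21; -0.04 on the TPM scale) and 12 and 4 in KO iTreg cells (0.16). Complex II, the only complex with no mitochondrially encoded subunit, had 1 of 4 genes higher in each comparison and medians between 0.01 and 0.24, with -0.06 on the TPM scale in WT iTreg cells. Nuclear complex III had 4, 4, 6 and 2 of 8 genes higher in the same order of comparisons and nuclear complex IV had 8, 9, 9 and 6 of 16 higher. Genes that fell in these 2 complexes numbered 1, 1, 0 and 0 in complex III and 4, 4, 3 and 2 in complex IV.

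Summed over genes, the levels gave the same picture for complex V and a weaker one for complex I. Summed complex V counts went from 5689 ± 147 CPM (SD, n = 4) in WT Th17n ctrl cells to 7223 ± 75.4 CPM (n = 4) with DFMO and from 5184 ± 15.2 CPM (n = 3) to 7076 ± 147 CPM (n = 3) in KO Th17n cells. In iTreg cells they went from 6879 ± 346 CPM (n = 4) to 8273 ± 381 CPM (n = 4) in WT and from 6441 ± 163 CPM (n = 3) to 7804 ± 247 CPM (n = 3) in KO. The sum was higher with DFMO in all 7 animals in both differentiations. Summed nuclear complex I counts were higher with DFMO in 4 of 4 WT and 3 of 3 KO animals in Th17n cells (mean log2 change 0.15 and 0.26), but in iTreg cells the mean log2 change was 0.01 in WT, higher in 3 of 4 animals, and 0.00 in KO, higher in 2 of 3. These sums are in CPM with no further scaling, whereas the fitted fold changes use TMM scaling. Its factors in WT iTreg cells were 0.891 to 1.003 with DFMO and 1.030 to 1.067 in ctrl. In KO iTreg cells they were 0.957 to 0.990 and 1.029 to 1.054, so in iTreg cells of both genotypes the scaling makes fitted changes larger than those of the sums. In Th17n cells the factors went the other way, at 1.004 to 1.053 with DFMO and 0.959 to 1.016 in ctrl over both genotypes.

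**Figure D2:**
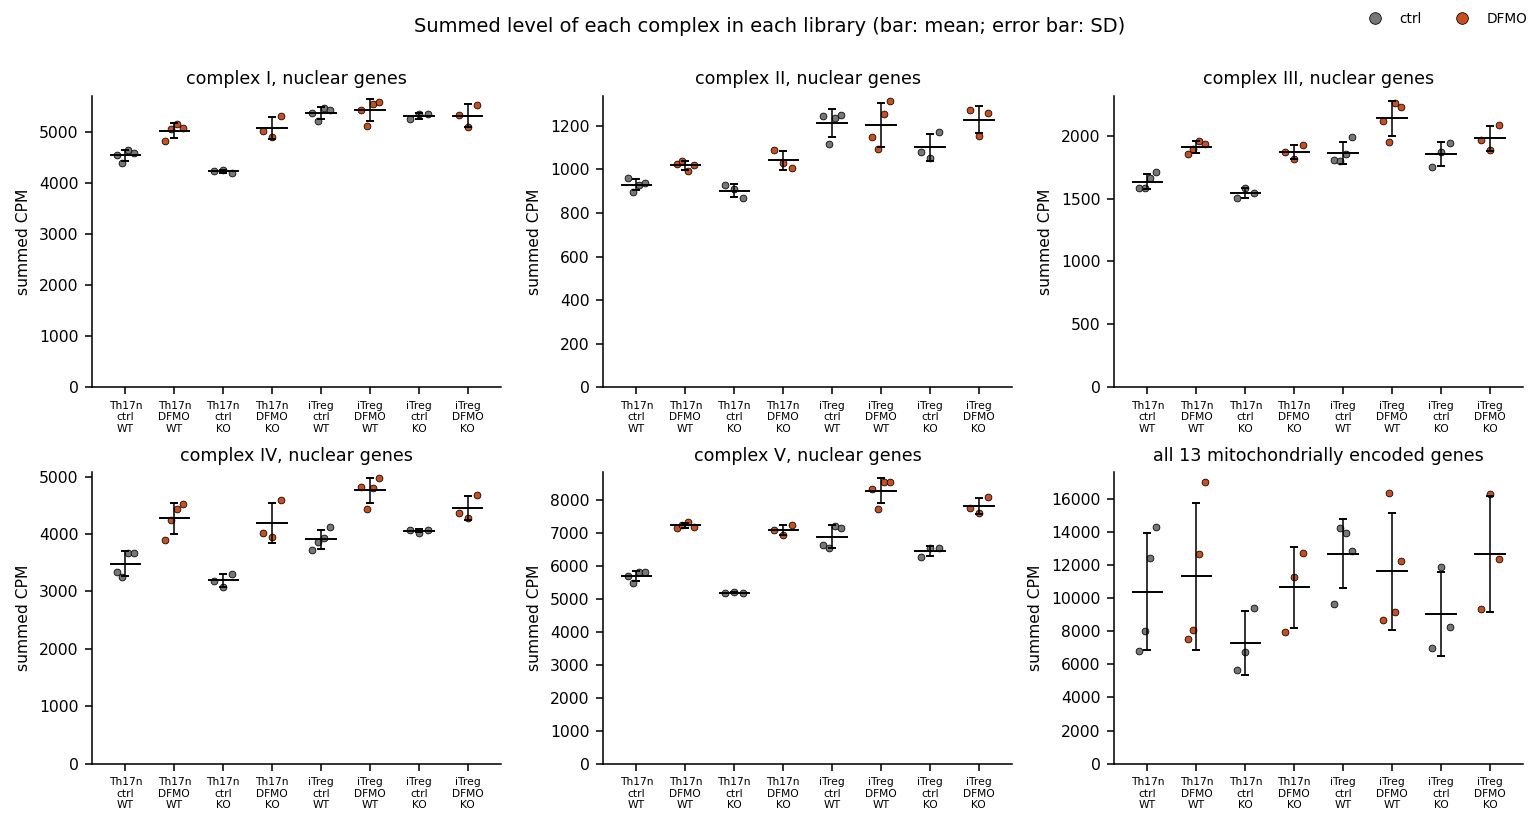
Summed level in CPM (vertical axes, from 0) of nuclear complexes I to V and of the 13 mitochondrial genes in each library of the 8 groups; bars are means, error bars SD, grey points ctrl and orange points DFMO. The DFMO points of complex V lie above the ctrl points of the same genotype and differentiation, while the sums of the mitochondrial genes range widely within each group.

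Across the 4 DFMO comparisons, 31 of the 93 members rose in each and 4 fell in each, and 15 were called in none. Of all 10985 genes tested, 11.4% rose in each, 10.9% fell in each and 28.6% were called in none. The comparisons share no libraries, but the Th17n and iTreg libraries of a genotype come from the same animals. Of the 31, 12 were nuclear complex I genes, 2 complex III, 5 complex IV and 9 complex V, and 3 were mitochondrial (mt-Cytb, mt-Nd4l and mt-Nd5). The 9 complex V genes were Atp5a1 and Atp5b of the catalytic head, Atp5e of the central stalk, Atp5h and Atp5j of the side stalk, Atp5g1 and Atp5g3 of the membrane ring, and Atp5j2 and Atp5l of the membrane part; these lists were drawn up after the calls were seen. Between genotypes, 56 members were called in both WT and KO Th17n cells, 88.9% of those called in WT and 86.2% of those called in KO, and all 56 had the same direction. Over all genes the shares were 75.2% and 85.4%, with the same direction in 4274 of 4281. In iTreg cells 38 were called in both, 67.9% and 82.6%, again all with the same direction, and over all genes the shares were 65.8% and 82.1%, with the same direction in 3429 of 3433. The members' overlap between genotypes was thus near that of all genes, except as a share of the WT calls in Th17n cells.

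Ndufa4, a subunit of complex IV first described with complex I, was among the members with the largest rise. It stood at 158, 131, 152 and 161 CPM in the 4 WT Th17n ctrl libraries and at 267, 285, 299 and 297 CPM with DFMO. In KO Th17n cells it stood at 130, 127 and 130 CPM in ctrl and at 296, 280 and 318 CPM with DFMO. In both genotypes every DFMO library was above every ctrl library. The log2 fold change was 0.88 ± 0.09 (SE, edgeR's quasi-likelihood test, adjusted p = 1.6e-09) in WT Th17n cells, 1.13 in KO Th17n cells and 0.72 in both WT and KO iTreg cells. In iTreg cells its ctrl level was already 257 to 322 CPM in WT, close to the level that DFMO gave in Th17n cells, and it reached 397 to 463 CPM with DFMO.

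Atp5g1, Atp5g2 and Atp5g3 encode the same mature ring subunit of ATP synthase with different import sequences, and they moved apart. Atp5g1 stood at 162, 126, 145 and 148 CPM in WT Th17n ctrl libraries and at 303, 271, 289 and 283 CPM with DFMO, with no overlap. Its log2 fold change was 0.93 ± 0.10 (SE, edgeR adjusted p = 5.4e-09) in WT Th17n cells, 1.08 in KO Th17n cells, 0.92 in WT iTreg cells and 0.75 in KO iTreg cells. Atp5g3 rose by 0.64 ± 0.11 (SE, edgeR adjusted p = 2.4e-05) in WT Th17n cells and by 0.65 to 0.74 on the log2 scale in the other 3 comparisons. Atp5g2 stood at 50.4, 43.8, 115 and 110 CPM in WT Th17n ctrl libraries and at 35.9, 32.3, 49.7 and 68.0 CPM with DFMO. The groups overlapped, each animal was lower with DFMO, and the log2 fold change of -0.83 ± 0.30 (SE, edgeR adjusted p = 0.022) did not pass under 7 of the other settings tried. Atp5g2 was not called in the other 3 comparisons, at -0.27 in KO Th17n, -0.40 in WT iTreg and 0.19 in KO iTreg cells.

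Among the other ATP synthase genes in WT Th17n cells, Atp5l, a membrane subunit, rose by 0.54 ± 0.07 (SE, edgeR adjusted p = 3.4e-07) on the log2 scale. The genes that fell were Atp5s, a coupling factor, at -0.72 (adjusted p = 0.02) and Atp5d, a central stalk subunit, at -0.29 (adjusted p = 0.0095). Atp5s fell in all 4 comparisons, at -0.95 in KO Th17n, -1.17 in WT iTreg and -1.12 in KO iTreg cells, from 8.28 to 10.1 CPM in WT Th17n ctrl libraries to 3.78 to 7.30 CPM with DFMO. Its call in WT Th17n cells did not pass under 7 of the other settings.

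Complex I showed rises and falls side by side in the same libraries. Ndufa5, Ndufa12 and Ndufb2, accessory subunits of its peripheral and membrane arms, rose in WT Th17n cells by 0.65, 0.64 and 0.59 on the log2 scale (edgeR adjusted p = 1.3e-06, 8.4e-08 and 6.1e-06). Ndufa5 rose by 1.04 in KO Th17n cells, and its interaction with genotype was not called, at 0.39 (edgeR adjusted p = 0.47). In KO iTreg cells Ndufa1, a small membrane-arm subunit, rose most among complex I genes, by 0.76. Ndufa6, an accessory subunit that binds the acyl carrier protein, stood at 169, 180, 183 and 190 CPM in WT Th17n ctrl libraries and at 95.2, 117, 105 and 124 CPM with DFMO. It fell in all 4 comparisons, with log2 fold changes of -0.76 ± 0.08 (SE, edgeR adjusted p = 6.9e-09) in WT Th17n, -0.72 in KO Th17n, -0.35 in WT iTreg and -0.50 in KO iTreg cells, and its ctrl and DFMO libraries did not overlap in any.

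Ndufv3, a small subunit of the NADH-binding module, behaved alike. It stood at 254, 266, 289 and 283 CPM in WT Th17n ctrl libraries and at 159, 183, 179 and 157 CPM with DFMO, and in WT iTreg cells at 227, 193, 216 and 216 CPM in ctrl and 140, 119, 140 and 145 CPM with DFMO. It fell by 0.74 ± 0.09 (SE, edgeR adjusted p = 3.6e-08) on the log2 scale in WT Th17n cells, and by 0.61, 0.49 and 0.65 in KO Th17n, WT iTreg and KO iTreg cells. Ndufb11, a membrane-arm subunit encoded on the X chromosome, fell in Th17n cells only as a call: from 205, 218, 197 and 219 CPM to 121, 153, 151 and 147 CPM in WT (log2 fold change -0.60 ± 0.09 SE, edgeR adjusted p = 1.6e-06) and by 0.65 in KO. In iTreg cells Ndufb11 changed by 0.13 in WT (adjusted p = 0.26) and -0.14 in KO (adjusted p = 0.31), and the test of that difference is given with the interactions.

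**Figure D3:**
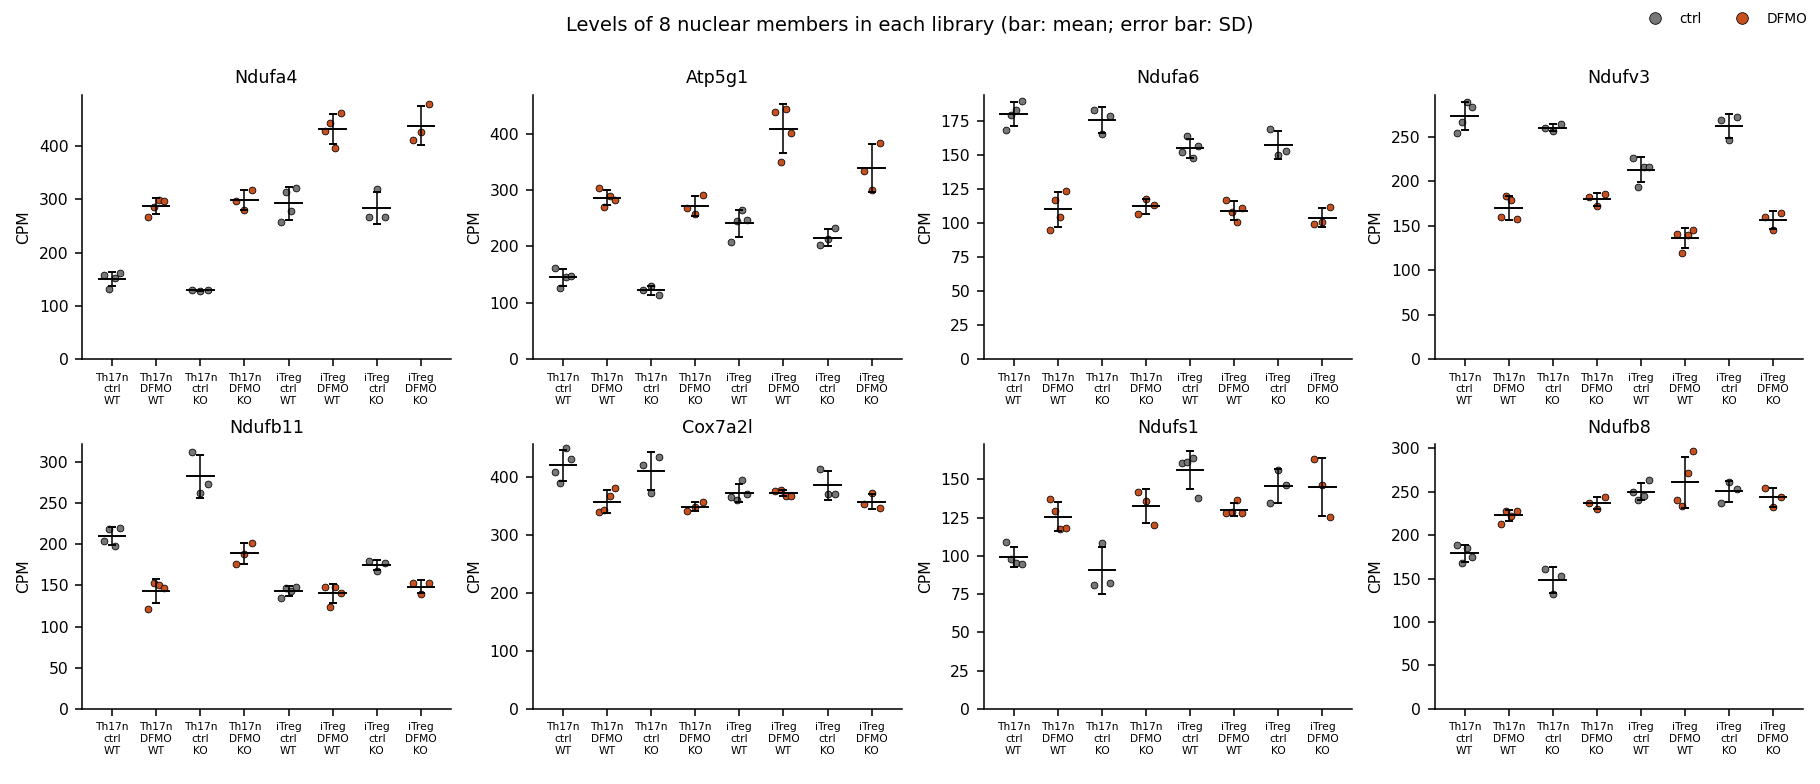
Level in CPM (vertical axes, from 0) of 8 nuclear members in each library of the 8 groups, with means as bars and SD as error bars; grey points are ctrl and orange points DFMO. Ndufa4 and Atp5g1 are higher and Ndufa6 and Ndufv3 lower with DFMO in each pair of groups with no overlap, while Ndufb11 is lower with DFMO in Th17n cells and its WT iTreg points overlap.

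In complex II, which also works in the tricarboxylic acid cycle, the 4 subunits did not move together. Sdhb, the iron-sulfur subunit, stood at 299, 261, 286 and 288 CPM in WT Th17n ctrl libraries and at 372, 359, 343 and 363 CPM with DFMO, and Sdhc, a membrane anchor, went from 78.1, 73.4, 64.5 and 67.2 CPM to 56.4, 58.1, 61.7 and 50.5 CPM. Neither pair of groups overlapped. Sdhb rose by 0.29 (edgeR adjusted p = 0.0056) in WT Th17n cells, by 0.39 (0.0023) in KO Th17n cells and by 0.22 (0.038) in WT iTreg cells, where the value on the TPM scale was -0.02. In KO iTreg cells Sdhb was at 0.21 (adjusted p = 0.093). Sdhc fell by 0.37 (adjusted p = 0.0055) in WT Th17n cells, by 0.32 (0.044; 0.0544 with the animal as a block) in KO Th17n cells and by 0.37 (0.026) in KO iTreg cells. Sdha, the flavoprotein, rose by 0.33 (adjusted p = 0.0066) in KO iTreg cells and was at 0.03, 0.03 and 0.11 in the others. Sdhd, the other anchor, was called in none, at -0.01, 0.13, 0.27 and 0.26; with the animal as a block its adjusted p was 0.0054 in WT iTreg and 0.0318 in KO iTreg cells.

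In complex III the largest rises in WT Th17n cells were those of the small subunits Uqcr11, Uqcr10 and Uqcrq. Uqcrb and Uqcrh, also small subunits, were not called there, at 0.15 and -0.16 on the log2 scale, and Uqcrfs1 rose by 0.33. Uqcr11 stood at 103, 95.8, 102 and 112 CPM in WT Th17n ctrl libraries and at 165, 164, 173 and 197 CPM with DFMO, and rose in all 4 comparisons by 0.71, 0.89, 0.88 and 0.81 on the log2 scale (edgeR adjusted p = 7.1e-06 in WT Th17n cells). Uqcr10 and Uqcrq rose in WT Th17n cells by 0.60 and 0.50 (adjusted p = 5.4e-06 and 0.00022). Uqcrc2, a core subunit, fell by 0.22 (adjusted p = 0.01) in WT Th17n cells, a call that did not pass under 7 of the other settings, and by 0.26 in KO Th17n cells. Its values in iTreg cells were 0.02 and -0.08.

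Several subunits of complex IV exist as a widely expressed form and a tissue-restricted form, and within these pairs the directions differed. Cox4i1, the widely expressed subunit 4, stood at 595, 635, 712 and 717 CPM in WT Th17n ctrl libraries and at 743, 868, 890 and 918 CPM with DFMO. Its partner Cox4i2, known for its expression in lung and its induction by low oxygen, stood at 5.26, 13.1, 5.67 and 10.4 CPM in ctrl and at 1.11, 2.22, 1.30 and 0 CPM with DFMO. Every DFMO library was below every ctrl library for Cox4i2. Cox4i1 rose by 0.31 (edgeR adjusted p = 0.026) in WT Th17n, 0.34 (0.038) in KO Th17n and 0.57 (0.00018) in WT iTreg cells, and was at 0.27 (0.12; 0.0118 with the animal as a block) in KO iTreg cells. Cox4i2 fell by 2.86 ± 0.51 (SE, edgeR adjusted p = 2.6e-05) in WT Th17n and by 2.97 (0.0006) in KO Th17n cells. In iTreg cells Cox4i2 was at most 1.51 CPM in any library and was not called.

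Cox6b2 and Cox7a1, known from testis and from heart and skeletal muscle, fell while their widely expressed partners Cox6b1 and Cox7a2 rose. Cox6b2 went from 5.70, 3.06, 5.88 and 2.76 CPM to 0.278, 0, 1.30 and 1.66 CPM in WT Th17n cells and from 8.90, 5.05, 9.22 and 7.88 CPM to 2.21, 2.38, 2.19 and 0.928 CPM in WT iTreg cells. It fell in all 4 comparisons, by 2.47, 2.10, 1.83 and 1.45 on the log2 scale (edgeR adjusted p = 0.00012, 0.0022, 0.00067 and 0.012). Cox7a1 fell 2.38-fold, 2.01-fold and 2.59-fold in WT Th17n, KO Th17n and WT iTreg cells and had a log2 fold change of -0.60 (adjusted p = 0.31) in KO iTreg cells. Cox6a2, another form known from heart and muscle, fell in iTreg cells by 2.44 in WT and 2.54 in KO (adjusted p = 0.0021 and 0.011) and was at -1.24 (0.059) and -0.51 (0.61) in Th17n cells. Of the partners, Cox6b1 rose in all 4 comparisons by 0.31 to 0.66, and Cox6a1 and Cox7a2 rose in all but KO iTreg cells. Cox8a, whose restricted partner Cox8b was at or near 0, was called in none (values of 0.10, 0.05, 0.21 and -0.15; adjusted p = 0.0326 in WT iTreg cells with the animal as a block). The restricted forms rest on few counts, at 2.23 to 4.76 counts per CPM. Marker genes of some other cell types, summed, were also lower with DFMO in Th17n cells. Erythroid sums overlapped there, at 1.06 to 1.97 CPM in ctrl and 0.899 to 2.21 CPM with DFMO in WT, and at 0 to 1.69 CPM and 0.232 to 0.845 CPM in the KO. The 6 myeloid markers in the tables summed to 8.09 to 9.34 CPM in WT ctrl and 2.25 to 4.03 CPM in WT DFMO libraries, and to 15.0 to 17.6 CPM and 2.62 to 5.12 CPM in the KO. The 6 markers of CD8 T and NK cells summed to 16.03 to 20.6 CPM and 7.03 to 10.4 CPM in WT, and to 22.9 to 26.3 CPM and 11.1 to 13.8 CPM in the KO. The 6 B cell markers summed to 4.36 to 5.64 CPM and 0.782 to 3.42 CPM in WT, and overlapped in the KO, at 2.30 to 4.10 CPM and 1.01 to 2.66 CPM. In iTreg cells, where Cox6b2 and Cox6a2 also fell, the myeloid sums were 4.21 to 8.24 CPM and 0.928 to 5.34 CPM in WT and 3.46 to 10.3 CPM and 2.998 to 3.90 CPM in the KO, and overlapped in both. The sums of B cell markers and of CD8 T and NK markers also overlapped in iTreg cells of both genotypes, with B cell markers at 13.4 to 15.4 CPM and 13.5 to 21.1 CPM in the KO. Erythroid sums overlapped in WT iTreg cells and were lower with DFMO in the KO, at 2.64 to 3.78 CPM and 1.32 to 1.65 CPM. The part of these cell types in the values of the restricted forms was not tested.

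**Figure D4:**
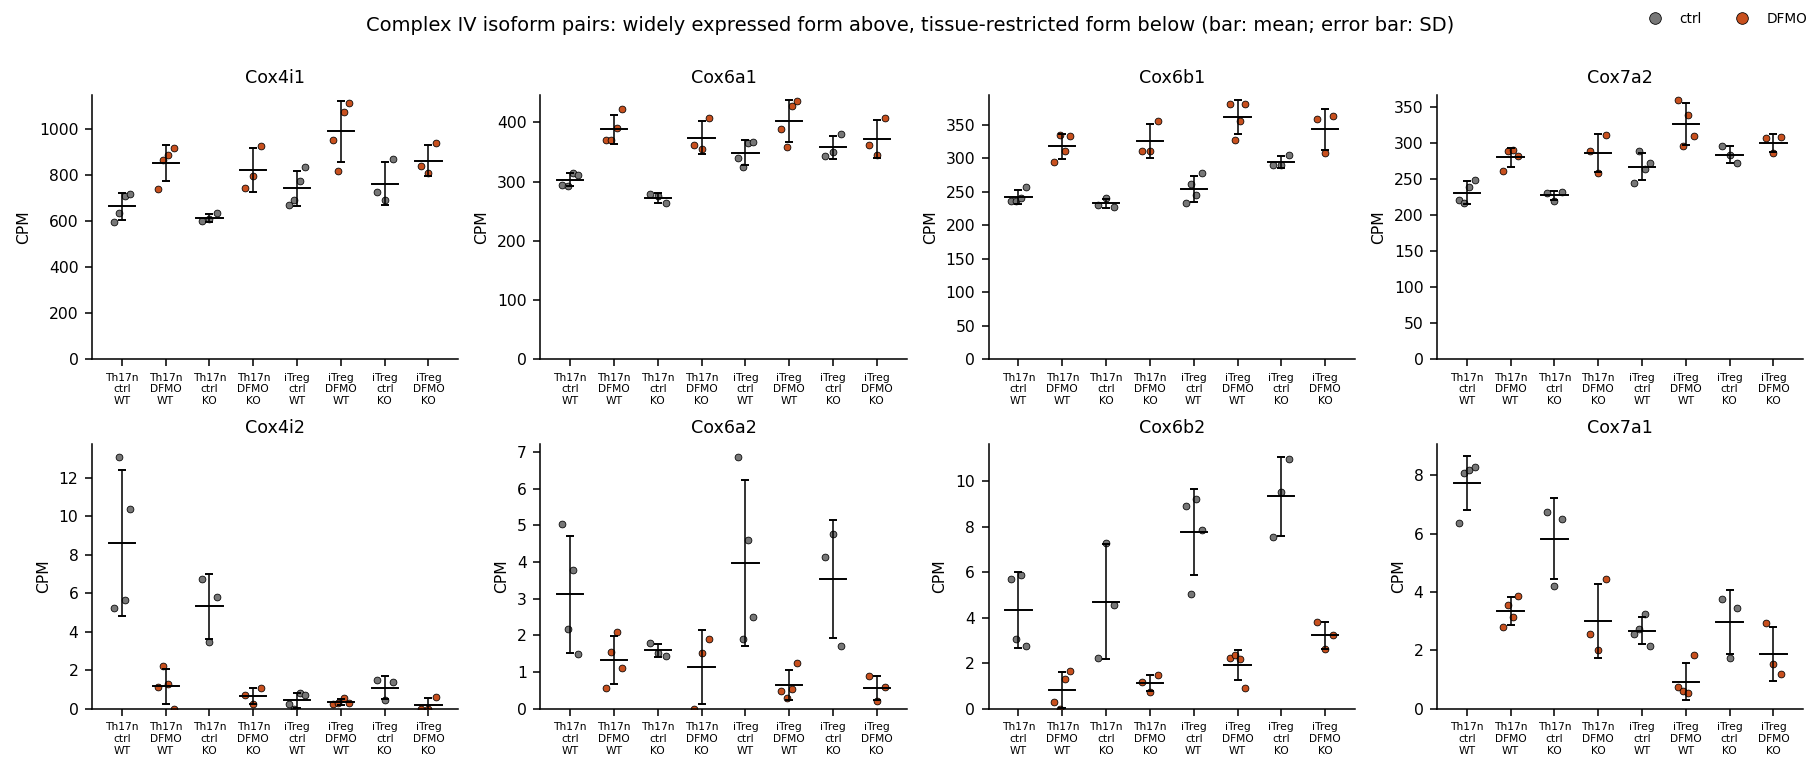
Level in CPM (vertical axes, from 0) of 4 widely expressed complex IV subunits (upper row: Cox4i1, Cox6a1, Cox6b1, Cox7a2) and their tissue-restricted partners (lower row: Cox4i2, Cox6a2, Cox6b2, Cox7a1) in each library of the 8 groups; bars are means, error bars SD, grey points ctrl and orange points DFMO. The upper forms stand at 216 CPM or more and the lower forms at 13.1 CPM or less, with Cox4i2 high in Th17n ctrl libraries.

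Promoter sequences of nuclear members are shown because many of these genes rose together. Of the 80 nuclear members, 67 had an entry among the RefSeq promoters (GRCm38.p6), and the 250 bases before each start site were searched on both strands for 4 short motifs. CCGGAAG, an ETS family motif, occurred in 12 of 67 members (17.9%), in 7 of the 24 that rose in all 4 comparisons (29.2%), in 0 of the 4 that fell in all 4, in 1 of the 13 called in none (7.69%), and in 7.83% of 27025 genes. GCGCA joined to its reverse complement, an NRF1 motif, occurred in 4 of 67 members (5.97%) and in 0.877% of all genes, but in 1 of the 24. CACGTG, an E-box, occurred in 6 of 67 (8.96%) against 6.86% of all genes, in 3 of the 24 (12.5%) and in 2 of the 13 (15.4%), and AAGATGGC, a YY1 motif, in 1 of 67 (1.49%) against 1.83%. The 27025 genes were not limited to the 10985 tested in these cells, whereas all members were, so the 2 sets are unlike. A match of letters is a description and not a bound site. The 150 bases before the start site, 5′ to 3′ on the gene's strand with motif matches in capitals, are given for 3 genes that rose in all 4 comparisons, Atp5g1 (chr11:96075632-96075781, minus strand), Uqcr11 (chr10:80406822-80406971, minus strand) and Atp5l (chr9:44920743-44920892, minus strand), and for 2 that fell in all 4, Ndufa6 (chr15:82354292-82354441, minus strand) and Ndufv3 (chr17:31519965-31520114, plus strand).
Atp5g1: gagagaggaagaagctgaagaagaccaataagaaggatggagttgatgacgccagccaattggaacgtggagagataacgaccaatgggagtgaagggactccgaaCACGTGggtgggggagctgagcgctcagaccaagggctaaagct
Uqcr11: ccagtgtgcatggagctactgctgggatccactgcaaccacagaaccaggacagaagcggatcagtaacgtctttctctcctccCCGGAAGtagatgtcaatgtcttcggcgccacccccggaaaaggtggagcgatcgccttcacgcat
Atp5l: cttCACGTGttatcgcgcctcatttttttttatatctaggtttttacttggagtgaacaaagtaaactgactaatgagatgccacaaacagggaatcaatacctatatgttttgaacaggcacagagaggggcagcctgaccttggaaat
Ndufa6: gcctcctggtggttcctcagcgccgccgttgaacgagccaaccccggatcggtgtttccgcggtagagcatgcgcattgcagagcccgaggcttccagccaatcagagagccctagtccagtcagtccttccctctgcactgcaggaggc
Ndufv3: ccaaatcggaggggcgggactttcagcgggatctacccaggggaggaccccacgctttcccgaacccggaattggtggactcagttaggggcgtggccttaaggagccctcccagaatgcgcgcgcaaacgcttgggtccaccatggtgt

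The 13 mitochondrial members were called in both directions in WT cells and only as higher in KO cells. In the order WT Th17n, KO Th17n, WT iTreg and KO iTreg, 4, 8, 3 and 8 of 13 rose with DFMO and 2, 0, 2 and 0 fell, with median log2 fold changes of 0.33, 0.92, 0.23 (-0.03 on the TPM scale) and 1.18. Of all genes, 23.4%, 21.1%, 23.1% and 19.0% rose in that order and 28.4%, 24.6%, 24.3% and 19.1% fell. The share of mitochondrial members that rose in WT iTreg cells was near that of all genes. The summed level of the 13 was 10396 ± 3542 CPM (SD, n = 4) in WT Th17n ctrl cells and 11325 ± 4456 CPM (n = 4) with DFMO, and 7280 ± 1926 CPM (n = 3) and 10651 ± 2455 CPM (n = 3) in KO Th17n cells. Within animals, the sum was higher with DFMO by a mean log2 change of 0.11 ± 0.114 (SD, 4 of 4 animals) in WT Th17n cells and 0.55 ± 0.169 (3 of 3) in KO Th17n cells. In iTreg cells it changed by -0.15 ± 0.333 in WT, where it was higher in 1 of 4 animals, and by 0.49 ± 0.0890 in KO, where it was higher in 3 of 3. With the animal as a block, 5, 9, 4 and 9 rose and 2, 1, 2 and 0 fell. Of all 10985 genes, 2703, 2426, 2663 and 2208 rose with the block and 3290, 2841, 2795 and 2274 fell.

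The composition of the mitochondrial counts separated the treatments in all libraries. mt-Co1, the catalytic subunit of complex IV, stood at 3220, 3943, 5921 and 6121 CPM in WT Th17n ctrl libraries and at 2100, 2219, 3451 and 4708 CPM with DFMO. mt-Cytb, the mitochondrial subunit of complex III, went the other way, from 393, 518, 596 and 911 CPM to 712, 970, 1129 and 1808 CPM. Both overlapped between groups, while within every animal mt-Co1 was lower and mt-Cytb higher with DFMO. As a share of the counts of the 13 genes, mt-Co1 took 42.8% to 53.5% in the 14 ctrl libraries and 24.5% to 29.7% in the 14 DFMO libraries. The share of mt-Cytb was 4.44% to 6.78% and 8.90% to 15.8%, that of mt-Nd1 9.55% to 14.3% and 15.4% to 22.3%, and that of mt-Nd5 5.01% to 6.69% and 8.47% to 12%. For these 4 genes no DFMO library overlapped a ctrl library, in either genotype or differentiation. The shares of the other 9 genes overlapped when all 14 ctrl libraries were set against all 14 DFMO libraries. Within each genotype and differentiation those of mt-Nd4 and mt-Nd4l did not overlap either. For mt-Nd4 they were 2.29% to 2.85% in ctrl and 2.86% to 3.84% with DFMO in WT Th17n cells. Taken in this way, the share of mt-Nd6 overlapped only in KO iTreg cells and that of mt-Co2 only in WT Th17n cells. The ratio of mt-Cytb to mt-Co1 counts was 0.0930 to 0.149 in ctrl and 0.327 to 0.583 in DFMO libraries, and 0.133 to 0.212 and 0.465 to 0.830 in TPM. Shares of one sum are not independent of each other, and this comparison was chosen after the values were seen, so no test is given.

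**Figure D5:**
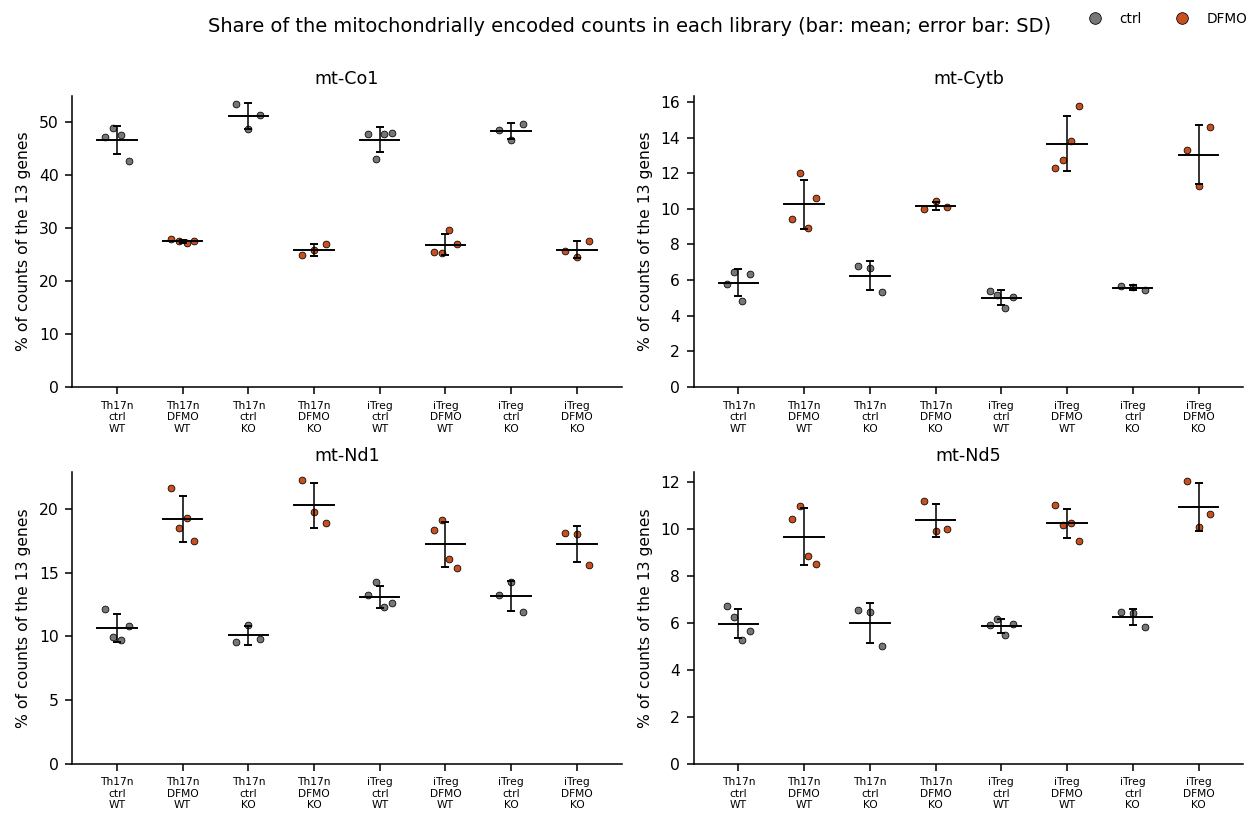
Share in percent of the counts of the 13 mitochondrial genes (vertical axes, from 0) taken by mt-Co1, mt-Cytb, mt-Nd1 and mt-Nd5 in each library of the 8 groups; grey points are ctrl and orange points DFMO, with means as bars and SD as error bars. mt-Co1 lies at 42.8% to 53.5% in all ctrl libraries and at 24.5% to 29.7% in all DFMO libraries, and the other 3 genes are higher in all DFMO libraries.

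Gene by gene, mt-Cytb rose in all 4 comparisons, by 0.88, 1.21, 1.48 and 1.79 on the log2 scale (edgeR adjusted p = 0.0041, 0.0012, 1.9e-05 and 2e-05). The complex I genes mt-Nd5 and mt-Nd4l also rose in all 4, mt-Nd5 by 0.75, 1.28, 0.81 and 1.37 and mt-Nd4l by 1.52, 3.70, 0.95 and 1.86. mt-Nd1 rose by 0.91, 1.46 and 0.96 in WT Th17n, KO Th17n and KO iTreg cells and was at 0.42 (adjusted p = 0.16) in WT iTreg cells. mt-Nd4 rose in KO cells, by 0.92 (adjusted p = 0.04) in Th17n and 1.18 (0.011) in iTreg, and was at 0.49 (0.19; 0.0195 with the animal as a block) and 0.57 (0.13; 0.0047 with the block) in the WT cells. mt-Co1 fell in WT cells, by 0.67 (adjusted p = 0.022) in Th17n and 0.78 (0.0098) in iTreg, and was at -0.50 (0.16; -0.52 and 0.0118 with the block) and -0.31 (0.41) in the KO cells. The WT Th17n call of mt-Co1 did not pass under 5 of the other settings, 4 of which left out a library. mt-Nd6, the only member on the light strand, fell in WT cells, by 0.72 (adjusted p = 0.04) and 0.89 (0.019), and was at -0.54 and -0.06 in KO cells.

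Among the remaining mitochondrial members mt-Co2 rose in KO Th17n cells by 0.84 (edgeR adjusted p = 0.041) and was at 0.69 (0.1; 0.0102 with the animal as a block) in KO iTreg cells. mt-Co3 rose in KO iTreg cells by 0.61 (0.037), and mt-Atp8 rose in KO cells, by 1.31 (0.014) in Th17n and 1.20 (0.026) in iTreg. mt-Nd3 rose in KO cells by 2.56 (0.0045) and 1.98 (0.024). mt-Nd2 was at 0.85 (0.052; 0.0041 with the block) in KO Th17n cells, and mt-Nd2 and mt-Atp6 were called in none of the 4. The largest of these values rest on estimates near 0: mt-Nd4l was estimated at 6.03e-06 and 2.24e-05 CPM in the KO Th17n ctrl libraries of animals 1 and 2 and at 16.5 CPM in that of animal 3, and mt-Nd3 was also near 0 in the same 2 libraries and at 0 in the KO iTreg ctrl library of animal 3. Fold changes against such libraries depend on the offset added to the counts.

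These short genes abut or overlap on the mitochondrial DNA, and estimated counts divide fragments that fit several transcripts between them. In GENCODE M21 (GRCm38) mt-Atp8 (204 bases) and mt-Atp6 (681 bases) share 43 bases, and mt-Nd4l (297 bases) and mt-Nd4 (1378 bases) share 7, all on the plus strand. The estimated count of mt-Atp8 was whole in 5 of the 28 libraries and that of mt-Atp6 in 1, so fragments were divided for both. The count of mt-Nd4l was whole in 3 libraries and that of mt-Nd4 in all 28, so none were divided for mt-Nd4. Estimates at or near 0 pass as whole here, and the whole counts of mt-Nd4l and mt-Nd3 include those libraries. Divided counts were not limited to genes that overlap in this way. The counts of mt-Co2 and mt-Co3 were whole in 0 libraries, that of mt-Co1 in 2 and that of mt-Nd3 in 4. Of these, mt-Co3 shares 1 base with mt-Atp6, and mt-Co2 and mt-Nd3 share none with another gene of that annotation. Which sequences shared the divided fragments was not tested. The longer overlap is shown as an example. The line gives chrM:7907-7989, 5′ to 3′, with the shared bases in capitals.
mt-Atp8 and mt-Atp6: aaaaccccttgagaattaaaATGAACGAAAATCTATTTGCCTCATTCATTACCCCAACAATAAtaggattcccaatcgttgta

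Th17n was next compared with iTreg cells within each genotype and treatment. In WT ctrl cells 7 members were higher and 29 lower in Th17n than in iTreg cells, where 19.9% of all genes were higher and 20.0% lower, with a median log2 fold change of -0.16 against -0.02 for all genes. All 36 were nuclear: complex I had 3 higher and 17 lower, complex II 0 and 2, complex III 0 and 2, complex IV 3 and 1, and complex V 1 and 7. None of the 13 mitochondrial genes was called by edgeR in WT ctrl cells, with 1 at an unadjusted p under 0.05 and a median of -0.22. In KO ctrl cells 5 were higher and 37 lower (all genes, 17.8% and 17.6%; median -0.27), of which 1 was mitochondrial (mt-Nd4l at -2.91, where 2 of the 3 Th17n libraries had the estimates near 0), with DFMO in WT 1 and 39 (13.1% and 16.3%; median -0.23), and with DFMO in KO 0 and 14 (9.89% and 10.8%; median -0.16). In the last of these, 27 members had an unadjusted p under 0.05, and 23 were lower with the animal as a block. The share of all genes at an unadjusted p under 0.05 was not counted, here or below, so such numbers of members have no background beside them. With that block mt-Nd1 was lower in Th17n than in iTreg ctrl cells, at -0.55 (edgeR adjusted p = 0.0196) in WT and -0.58 (0.0365) in KO, and with DFMO mt-Cytb was lower, at -0.61 (0.00061) in WT and -0.66 (0.0018) in KO, and so were mt-Nd4 in WT and mt-Co3 and mt-Nd4l in KO cells. The split with DFMO depends on the scale. On the TPM scale fewer members were lower and more were higher in both genotypes, with the counts given in the last section. Under every setting, 10 of the 40 calls in WT DFMO and 2 of the 14 in KO DFMO cells were kept.

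The summed nuclear level was 16280 ± 531 CPM (SD, n = 4) in WT Th17n ctrl and 19238 ± 687 CPM (n = 4) in WT iTreg ctrl cells, and 15053 ± 38.0 CPM (n = 3) and 18769 ± 347 CPM (n = 3) in the KO. With DFMO the Th17n sums were 19453 ± 488 CPM (n = 4) in WT and 19256 ± 731 CPM (n = 3) in KO, near the sums of iTreg ctrl cells, and the iTreg sums were 21799 ± 1035 CPM (n = 4) and 20784 ± 814 CPM (n = 3).

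The members lowest in WT Th17n ctrl relative to iTreg ctrl cells by adjusted p were Ndufa4, at -0.88 ± 0.09 (SE, edgeR adjusted p = 2e-09) on the log2 scale, Atp5g1 at -0.65 (3.5e-06), Ndufs8, an iron-sulfur core subunit of complex I, at -0.65 (3.6e-06), Ndufa12 at -0.51 (4.8e-06) and Ndufs1, the largest core subunit of complex I, at -0.57 (5.7e-06). The members higher in Th17n cells were led by Cox4i2 at 4.39 ± 0.62 (SE, edgeR adjusted p = 1e-06), Ndufb11 at 0.63 (1.2e-06), Atp5d at 0.54 (2.6e-05), Ndufv3 at 0.44 (0.00013) and Cox7a1 at 1.59 (0.00013). Cox4i2 was 5.26 to 13.1 CPM in the WT Th17n ctrl libraries and 0 to 0.813 CPM in the WT iTreg ctrl libraries, the latter at a few counts at most. In complex II, Sdha and Sdhb were lower in Th17n cells, at -0.33 and -0.39 (adjusted p = 0.0018 and 0.00048), and Sdhc was at 0.00.

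Whether DFMO acted differently in Th17n and iTreg cells was tested as an interaction. In WT cells 6 members differed, 1 with a more positive change in Th17n cells and 5 with a more negative one, where 3.39% and 5.34% of all genes did so, and 17 had an unadjusted p under 0.05. The largest in significance was Ndufb11, at -0.73 ± 0.13 (SE, edgeR adjusted p = 0.00035), which passed under all settings tried. Cox7a2l, known to join complexes III and IV and present in C57BL/6 mice as a short form, followed at -0.43 ± 0.10 (adjusted p = 0.0056): it stood at 408, 390, 451 and 431 CPM in WT Th17n ctrl libraries and at 340, 343, 367 and 382 CPM with DFMO, but at 365, 360, 395 and 371 CPM and 376, 379, 368 and 367 CPM in iTreg cells. Thus Th17n libraries fell below all their ctrl values and iTreg libraries overlapped. Atp5d was at -0.47 (0.021), Ndufa6 at -0.41 (0.024), Uqcrh, the hinge subunit of complex III, at -0.58 (0.03) and Ndufs1 at 0.40 (0.047).

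In KO cells the interaction was called for 3 members (all genes, 2.20% more positive and 3.70% more negative), and 21 had an unadjusted p under 0.05. Ndufb8, a membrane-arm subunit of complex I, was at 0.54 (edgeR adjusted p = 0.016), with 161, 132 and 153 CPM in Th17n ctrl libraries and 237, 230 and 244 CPM with DFMO, against 238, 262 and 253 CPM and 255, 233 and 244 CPM in iTreg cells. Ndufb11 was at -0.51 (0.034) and Ndufa5 at 0.55 (0.037). Ndufb11 was the only member called in both genotypes. Its exons share 117 bases with Rbm10 on the opposite strand, and strand use is not given in the sources used here. Rbm10 changed by 0.22 and 0.21 with DFMO in WT and KO Th17n cells (adjusted p = 0.051 and 0.11) and rose by 0.47 and 0.56 in iTreg cells (0.00014 and 0.0002). Its own interaction with differentiation was not called, at -0.25 in WT and -0.34 in KO (edgeR adjusted p = 0.26 and 0.21); its part in the Ndufb11 counts was not tested.

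KO was compared with WT in each of the 4 conditions. Kdm6b itself, which encodes JMJD3, stood at 34.0 to 59.4 CPM in WT and 27.6 to 41.5 CPM in KO Th17n ctrl libraries, which overlapped. With DFMO in Th17n cells the ranges were 37.9 to 64.4 CPM and 25.0 to 33.2 CPM. In iTreg cells they were 39.9 to 52.0 CPM and 29.9 to 35.0 CPM in ctrl, and 40.3 to 53.8 CPM and 19.4 to 26.4 CPM with DFMO. The log2 fold change was -0.44 (edgeR adjusted p = 0.28) and -0.95 (0.0076) in Th17n ctrl and DFMO cells, and -0.48 (0.19) and -1.01 (0.0025) in iTreg cells. Counts per gene do not resolve the deleted exons.

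Few genes were called between genotypes, both among the members and among all genes. In Th17n cells the share of members called was near that of all genes. Few calls do not show that the genotypes were alike, and the recovery of differences between genotypes was not simulated. In Th17n ctrl cells 20 members had an unadjusted p under 0.05, with the share of all genes not counted, and the median log2 fold change was -0.14. As calls, 1 member was higher and 1 lower in KO (all genes, 2.29% and 0.746%). The higher one was Ndufb11, at 0.46 ± 0.09 (SE, edgeR adjusted p = 0.005), with 312, 262 and 273 CPM in KO and 205, 218, 197 and 219 CPM in WT libraries; it was not called without the KO library of animal 1. The lower one was mt-Nd4l, at -2.71 ± 0.62 (SE, edgeR adjusted p = 0.012), which was not called without the KO library of animal 1 or that of animal 2, the libraries with estimates near 0. With DFMO in Th17n cells only Ndufb11 was called, at 0.41 ± 0.10 (SE, edgeR adjusted p = 0.029; all genes, 0.646% higher and 0.373% lower), a call that did not pass under 6 of the other settings. Rbm10 was at 0.18 in both (adjusted p = 0.42 and 0.64).

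In iTreg cells edgeR called 0 members between genotypes in ctrl (all genes, 3.17% higher and 2.13% lower), with 18 at an unadjusted p under 0.05, and 0 with DFMO (all genes, 1.91% and 2.23%), with 10; DESeq2 called 2 and 1. The interaction of DFMO with genotype was called by edgeR for 0 members in Th17n cells (all genes, 0.328% in either direction), with 6 at an unadjusted p under 0.05, and for 0 in iTreg cells (0.246%), with 10. The mitochondrial genes had negative medians in KO ctrl cells, -0.54 in Th17n and -0.51 in iTreg, and -0.08 and 0.09 with DFMO. The rise of the mitochondrial genes with DFMO in KO that is larger than in WT was therefore not shown to differ between genotypes.

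Genes that build and feed the chain were counted from lists chosen by function, as called with DFMO in WT Th17n cells, where 23.4% of all genes rose and 28.4% fell. Of 18 genes of electron carriers and coenzyme Q synthesis 12 rose and 3 fell, with a median log2 fold change of 0.35. Among them Coq4, a scaffold of coenzyme Q synthesis, rose by 1.46, Pdss1, which makes its side chain, by 1.20, and Dhodh, a pyrimidine enzyme that passes electrons to coenzyme Q, by 1.10, while Coq10a fell by 1.55. In KO Th17n, WT iTreg and KO iTreg cells 10, 7 and 7 of the 18 rose and 2, 3 and 3 fell, beside 21.1%, 23.1% and 19.0% of all genes that rose and 24.6%, 24.3% and 19.1% that fell. Of 20 genes of mitochondrial DNA expression 7 rose (35%) and 3 fell (15%), with a median of 0.01. Elac2, which cuts the 3′ ends of mitochondrial tRNAs from the precursors, rose by 1.48 (edgeR adjusted p = 8.1e-10), Fastkd2, a mitochondrial RNA-binding protein, by 0.91, and Supv3l1, a mitochondrial RNA helicase, by 0.70, while Hsd17b10, a subunit of the enzyme that cuts the 5′ ends of mitochondrial tRNAs, fell by 0.91. In the other 3 comparisons 6, 7 and 6 of the 20 rose (30%, 35% and 30%) and 1, 4 and 1 fell (5%, 20% and 5%).

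Assembly factors changed in both directions, and the shares that rose for complexes I and IV were near that of all genes in WT Th17n cells (23.4% higher, 28.4% lower). Of 14 complex I assembly genes 3 rose (21.4%) and 1 fell: Ndufaf4 rose by 1.43 (edgeR adjusted p = 5.4e-08), Ndufaf2 by 0.68 and Tmem186 by 0.57, and Ndufaf7 fell by 0.34. Of 20 complex IV assembly genes 5 rose (25%) and 4 fell (20%), among them Cox11, which carries copper, up by 1.67, Coa7 up by 0.95, Surf1, which is mutated in Leigh syndrome, at -0.77 and Cmc1 at -0.83. Of 6 complex III assembly genes Uqcc1 rose by 0.31, and Bcs1l and Uqcc3 fell by 0.58 and 0.38. Of 3 for complex V, Atpaf1 and Atpaf2 each rose by 0.50 and Tmem70 fell by 0.30, and of 2 for complex II, Sdhaf1 rose by 0.55. Among 10 regulators of respiratory genes Pprc1, Nrf1 and Myc rose by 0.69, 0.42 and 0.23 and 0 fell, so that 30% rose. Among 18 tricarboxylic acid cycle genes 3 rose (16.7%), such as Idh3a by 0.65, and 5 fell (27.8%), such as Idh2, Suclg1 and Mdh1 by 0.53, 0.51 and 0.47.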

How the data were processed

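The members and gene lists were chosen with earlier results of these data known. RNA was measured in 28 full-length, paired 75 bp libraries. Per the submitters' processing notes, kallisto and GRCm38 were used; versions and strand settings are not given in the sources used here. The deposited tables hold an estimated count and a TPM value for each of 20891 genes and each library, and 0 columns belonged to no listed sample. Within 0.001, 67.2% of all estimated counts and 51.3% of the 2604 member values were whole. Of the symbols, 20837 matched GENCODE M21. No libraries were identical (highest r of log2(CPM + 1), 0.992).

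Counts were rounded to whole numbers and filtered with filterByExpr, which left 10985 genes and all 93 members. They were scaled by TMM and fitted over 8 group means with edgeR's quasi-likelihood test (edgeR 4.0.16, R 4.3.3; common dispersion 0.0182, residual df 20, prior df 9.24). p-values were adjusted by Benjamini-Hochberg over all genes tested, with calls made under 0.05. CPM values do not carry the TMM scaling. The SE of a log2 fold change was taken from the test statistic. The same test was tested on simulated data: for DFMO in WT Th17n cells, with 10985 genes, it recovered 8% of 50 genes changed 1.25-fold, 48% of 50 changed 1.5-fold and 74% of 50 changed 2-fold, with 2 false calls. For DFMO in KO Th17n, WT iTreg and KO iTreg cells, with 10985 genes each, it recovered 22%, 40% and 24% of 50 genes changed 1.5-fold and 66%, 78% and 64% of 50 changed 2-fold, with 4, 4 and 7 false calls. The simulations changed 50 genes at each fold change, drawn over all levels of expression, while 5690 genes were called in the data in WT Th17n cells. Adjusted p-values are stricter where fewer genes change, so these shares do not give the recovery for the members.

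The labels name the animal of each library, so the numbers pair libraries within a genotype. DFMO and ctrl libraries of an animal deviated together in 13 of 14 pairs at r over 0.1 (range 0.0659 to 0.499), and Th17n and iTreg libraries of an animal in 8 of 14 (range -0.0942 to 0.264). The animal as a block was an alternative. Other alternatives were RLE size factors, DESeq2 1.42.0, no filter, scaling from nuclear genes only, only the groups compared, limma 3.58.1 on log2(TPM + 1) with and without a filter at a mean of 1 TPM and on log2(TPM + 0.1), and leaving out each library. Each animal is 1 replicate. Named with values were all mitochondrial members, Sdha to Sdhd, the isoform pairs of complex IV, for each nuclear complex the largest called rise and fall in each DFMO comparison (up to 3 each way in WT Th17n cells), every called member where there were 10 or fewer, the 5 of smallest adjusted p each way between Th17n and iTreg WT ctrl cells, and up to 4 genes from each list by adjusted p in WT Th17n cells; others were chosen after their values were seen. Promoters are RefSeq's for GRCm38.p6. Mitochondrial ribosomal RNA was not analysed here.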

Additional observations from a re-analysis of the deposited data

Results flagged for a closer look

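Among 36 pairs of a group of 4 libraries and a summed measure, 2 had 1 library far from the others, where chance gives about 1 in 20. Both were the WT iTreg ctrl library of animal 2. Its summed complex II level was 1116.5 CPM and the other 3 libraries stood at 1237 to 1252 CPM, a gap of 0.888 of the whole range. Its share of mt-Co1 among the counts of the 13 mitochondrial genes was 43.2% and the others stood at 47.8% to 48.1%, a gap of 0.940 of the range. Without this library 38 members rose with DFMO in WT iTreg cells, against 47 with it, and 10 fell, against 9. Leaving out any 1 library of this comparison gave 38 to 46 higher and 9 to 10 lower, so every such fit had fewer rises than the full one. With all libraries 23.1% of all genes rose and 24.3% fell.

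The effect of DFMO differed between Th17n and iTreg cells for 9 values in the interaction test of edgeR. In WT cells these were Ndufb11 at -0.73, Cox7a2l at -0.43, Atp5d at -0.47, Ndufa6 at -0.41, Uqcrh at -0.58 and Ndufs1 at 0.40 on the log2 scale. In KO cells they were Ndufb8 at 0.54, Ndufb11 at -0.51 and Ndufa5 at 0.55. Of all genes, 3.39% had a more positive and 5.34% a more negative change in Th17n cells in WT, and 2.20% and 3.70% in KO. The 6 of 93 members in WT and 3 of 93 in KO were no larger a share than that of all genes. Under every setting, 1 of the 6 and 1 of the 3 kept the call.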

How the results depend on the processing

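Of the members called with DFMO, 50 of 63 in WT Th17n, 48 of 65 in KO Th17n, 35 of 56 in WT iTreg and 23 of 46 in KO iTreg cells kept their call under every setting. Between Th17n and iTreg cells 29 of 36 kept it in WT ctrl, 24 of 42 in KO ctrl, 10 of 40 in WT DFMO and 2 of 14 in KO DFMO cells. For KO against WT 0 of 2 and 0 of 1 kept it in Th17n ctrl and DFMO cells. The interaction with differentiation kept Ndufb11 in WT and Ndufb8 in KO. The cause of the changes below was not tested; settings that leave out libraries hold fewer samples.

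On the TPM scale (limma, log2(TPM + 1), the same without filter, log2(TPM + 0.1)) counts became 31, 27 and 31 higher and 20, 18 and 20 lower with DFMO in WT iTreg cells; 6, 6 and 6 higher and 12, 10 and 12 lower in WT DFMO Th17n against iTreg cells; 5, 5 and 5 higher and 5, 5 and 5 lower in KO DFMO cells; 5, 4 and 5 for KO against WT in Th17n ctrl and 2, 2 and 2 in iTreg ctrl cells; and 17, 14 and 15 in WT and 18, 11 and 15 in KO for the interaction with differentiation. With TPM and no filter 10 members were lower with DFMO in WT Th17n cells, and with log2(TPM + 0.1) 1 differed by genotype in iTreg DFMO cells. Signs turned on the 3 TPM settings in WT iTreg cells for 3 of the 56 called members, Sdhb (-0.0166 in all 3), Cox7b (down to -0.11) and Ndufb8 (down to -0.05), for the median log2 fold change of nuclear complex I, DFMO against ctrl in WT iTreg (-0.0361, -0.0361 and -0.0362), for the median log2 fold change of nuclear complex II, DFMO against ctrl in WT iTreg (-0.0583, -0.0583 and -0.0586) and for the median of the mitochondrial genes (-0.0274 in all 3).

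Without a filter on low counts, 7 members were lower with DFMO in KO Th17n cells, 3 higher in KO ctrl and 1 higher and 8 lower in KO DFMO Th17n against iTreg cells, 10 and 11 differed by genotype in Th17n and iTreg ctrl cells, and 4 and 3 in the genotype interactions of Th17n and iTreg cells. With scaling from nuclear genes only, 2 were higher in WT DFMO and 1 higher and 9 lower in KO DFMO Th17n against iTreg cells, and 1 differed by genotype in iTreg ctrl cells. With only the groups compared, 3 were higher in KO ctrl and 1 in KO DFMO Th17n against iTreg cells, 0 and 1 differed by genotype in Th17n DFMO and iTreg ctrl cells, and 3 in the WT interaction with differentiation. RLE size factors gave 1 higher in KO DFMO Th17n against iTreg cells and 1 by genotype in iTreg ctrl cells; DESeq2 gave 1, and 2 and 1 by genotype in iTreg ctrl and DFMO cells.

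With the animal as a replicate block, 1 member was higher and 23 were lower in KO DFMO Th17n against iTreg cells, and 13 differed in the WT interaction with differentiation; no other count of members moved by over 1.5 times. It also made calls of Cox6a1 (-0.17) in WT DFMO, Cox8a (-0.25) and Cox6b1 (-0.24) in KO ctrl, and Cox6b2 (-1.52) and Sdhd (-0.28) in KO DFMO Th17n against iTreg cells, and of mt-Cytb (-0.56) in the WT interaction. KO and WT come from different animals, so no blocked fit exists between them.

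Leaving out each library gave 10 to 16 members lower with DFMO in WT Th17n cells (fewest without the DFMO library of WT animal 2), 7 to 11 in KO Th17n cells (DFMO, KO animal 2), and 25 to 36 higher (DFMO, KO animal 3) and 5 to 10 lower (DFMO, KO animal 2) in KO iTreg cells. Between Th17n and iTreg cells it gave 3 to 6 higher in KO ctrl, 1 to 3 higher in WT DFMO, and 0 to 1 higher and 4 to 13 lower in KO DFMO cells (fewest without Th17n DFMO, KO animal 2). By genotype it gave 0 to 3 in Th17n ctrl (0 without KO animal 1), 0 to 1 in Th17n DFMO, 0 to 3 in iTreg ctrl (3 without KO animal 2 or WT animal 4) and 0 to 4 in iTreg DFMO cells (4 without WT animal 2). The interactions gave 0 to 1 with genotype in Th17n cells (1 without ctrl, KO animal 3), and with differentiation 2 to 6 in WT (2 without Th17n DFMO, WT animal 1) and 1 to 5 in KO.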
